A study of Mus musculus with 36 samples.

Results

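The enzymes that oxidise ethanol to acetaldehyde and acetaldehyde to acetate were followed in peak lists of 2 histone marks from mouse dorsal hippocampus. The set was a fixed list of 9 genes of 21887 protein-coding genes. It held the alcohol dehydrogenases Adh1, Adh4, Adh5 and Adh7, the cytochrome P450 Cyp2e1, catalase (Cat), and the aldehyde dehydrogenases Aldh2, Aldh1a1 and Aldh1b1. For each gene, every peak within 10 kb of the gene body was taken from all 8 lists, and bases inside peaks were counted within 2 kb of either gene end. These bases are called covered bases below.

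Chromatin immunoprecipitation and sequencing measured 2 acetyl marks of histone H3, on lysine 9 (H3K9ac) and on lysine 27 (H3K27ac), in male mice of 8 weeks. Mice received either a control vector or an adeno-associated virus (AAV2/9) carrying U6.shACSS2.CMV.EGFP, a hairpin against Acss2, into the dorsal hippocampus. They were either left untreated or given ethanol at 2 g per kg into the peritoneum as a 20% solution. The 4 resulting conditions, with 3 replicates each for both marks and for input, are called untreated control, ethanol control, untreated knockdown and ethanol knockdown, and values below follow that order. All groups therefore carry a vector, the untreated mice had no injection of saline that the labels mention, and the sources used here give no time between ethanol and dissection. The hairpin is made from a promoter active in most cells, so which cells carry it depends on the virus, and the tissue is a mixture of transduced and other cells. In such bulk tissue, fewer cells of a type and less acetylation per cell cannot be told apart.

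Ethanol is oxidised to acetaldehyde by alcohol dehydrogenases in the cytosol, by CYP2E1 in the endoplasmic reticulum and by catalase with hydrogen peroxide in peroxisomes. Acetaldehyde is oxidised to acetate mainly by mitochondrial ALDH2, with ALDH1B1 in mitochondria and ALDH1A1 in the cytosol. The liver does most of this work. In the brain catalase, CYP2E1 and ALDH2 are usually named as the local routes, and ACSS2 makes acetyl-CoA, from which histones are acetylated, out of acetate. H3K9ac is found mostly at active promoters, and H3K27ac at active promoters and enhancers.

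Per the labels, 1 peak list stands for all 3 replicates, so each condition has 1 list per mark, no error can be given and nothing was tested. The H3K9ac lists held 31042 to 42120 peaks on the assembled chromosomes, fewest in ethanol control, and the H3K27ac lists 86110 to 119317, most in ethanol knockdown. The read depth behind them is unknown, and a longer list covers more bases by itself, so the share of genes that changed alike is given beside the counts. For changes between lists, that share is of the 13436 to 14816 protein-coding genes with a covered base at their ends in either list of the contrast, called covered genes below. Checked against markers, 8 or 9 of 10 excitatory neuron genes had covered ends, 6 to 8 of 9 astrocyte genes and 6 to 9 of 10 oligodendrocyte lineage genes, against 57.5% to 66.8% of all genes. Covered ends were fewer among markers of inhibitory neurons (2 to 4 of 8), microglia (1 to 5 of 8) and endothelium (2 or 3 of 6), with ranges that overlapped that of hepatocyte markers (2 to 5 of 10). The hepatocyte genes Alb, Serpina1a, Cyp3a11, Fgb and Hnf4a had no covered end in any list. A hairpin acts on messenger RNA, so peaks at Acss2 do not check the knockdown.

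The promoter sequences of the members differ in the number of CpG dinucleotides, a feature that went with the share of covered starts over all genes. RefSeq promoter entries were found for 8 members with 10 annotated starts, 2 each for Adh5 and Aldh1a1, and all but Aldh2 matched. The 250 bases before 6 of these starts are shown 5′ to 3′ on the transcribed strand (GRCm38.p6), with CpG in capitals. Adh5 inner start, Cat and Aldh1b1 are shown because peaks of both marks lay there in all 8 lists, and Adh5 outer start, Adh1 and Cyp2e1 because no list had a peak within 2 kb.
Adh5 inner start, plus strand, chr3:138442843-138443092: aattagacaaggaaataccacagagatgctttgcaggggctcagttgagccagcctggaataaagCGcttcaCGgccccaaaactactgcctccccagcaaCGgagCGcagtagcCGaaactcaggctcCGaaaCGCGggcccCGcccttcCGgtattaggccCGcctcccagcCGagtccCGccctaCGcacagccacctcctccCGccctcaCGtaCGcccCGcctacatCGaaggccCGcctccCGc
Cat, minus strand, chr2:103485154-103485403: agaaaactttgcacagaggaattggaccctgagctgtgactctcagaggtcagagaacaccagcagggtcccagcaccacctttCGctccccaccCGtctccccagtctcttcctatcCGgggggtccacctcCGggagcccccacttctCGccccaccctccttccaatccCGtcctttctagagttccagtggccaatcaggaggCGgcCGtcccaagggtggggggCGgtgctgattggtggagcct
Aldh1b1, plus strand, chr4:45798772-45799021: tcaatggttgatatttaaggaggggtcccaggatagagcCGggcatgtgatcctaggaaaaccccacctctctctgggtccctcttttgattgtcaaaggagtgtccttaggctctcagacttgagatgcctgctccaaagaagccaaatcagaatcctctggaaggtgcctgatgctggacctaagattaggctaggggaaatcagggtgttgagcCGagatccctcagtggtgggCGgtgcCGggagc
Adh5 outer start, plus strand, chr3:138436950-138437199: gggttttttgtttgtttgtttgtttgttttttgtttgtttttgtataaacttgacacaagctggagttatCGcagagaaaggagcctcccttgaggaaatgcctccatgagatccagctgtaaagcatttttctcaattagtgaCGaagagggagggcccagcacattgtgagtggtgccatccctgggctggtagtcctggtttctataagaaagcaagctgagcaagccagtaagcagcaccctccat
Adh1, plus strand, chr3:138277335-138277584: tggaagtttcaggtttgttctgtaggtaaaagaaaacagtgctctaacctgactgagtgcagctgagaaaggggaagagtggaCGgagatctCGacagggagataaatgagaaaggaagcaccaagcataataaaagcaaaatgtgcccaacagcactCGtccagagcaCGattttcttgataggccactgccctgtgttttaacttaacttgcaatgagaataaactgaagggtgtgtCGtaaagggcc
Cyp2e1, plus strand, chr7:140763569-140763818: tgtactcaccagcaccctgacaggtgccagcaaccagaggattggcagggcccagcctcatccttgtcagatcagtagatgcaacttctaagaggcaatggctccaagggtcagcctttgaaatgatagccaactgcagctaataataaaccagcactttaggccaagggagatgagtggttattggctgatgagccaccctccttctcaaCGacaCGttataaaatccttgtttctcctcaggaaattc

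The inner start of Adh5 held 21 CpG, more than 78.4% of the 21255 starts of all protein-coding genes in the table, whose median was 10. The Cat sequence held 9 and that of Aldh1b1 held 4. The outer start of Adh5 held 2, Adh1 5 and Cyp2e1 2, and the starts not shown held 1 (Adh7, Adh4 and the inner start of Aldh1a1) or 3 (the outer start of Aldh1a1). Of all starts with 10 or more CpG, 91.0% to 93.5% had a covered base within 2 kb in the 4 H3K9ac lists and 94.2% to 95.8% in the H3K27ac lists. Of starts with 5 to 9 CpG, the class of Cat and Adh1, the shares were 52.5% to 58.8% and 63.2% to 67.8%. Of starts with 0 to 4 CpG, they were 12.6% to 15.8% and 19.3% to 22.9%. Aldh1b1 was thus covered in all lists from a class of starts that mostly was not. Adh1 was bare from a class that mostly was covered, and held more CpG than Aldh1b1.

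Short motifs were searched on both strands of the same 250 bases. The letters GGGCGG, known as the GC box, were found before the inner start of Adh5, Cat and Aldh1b1 and before none of the other 7 member starts, and 42.6% of all starts hold them. The letters TATAAA, known as the TATA box, were found before Adh7, the outer start of Adh5 and Cyp2e1, and 11.6% of all starts hold them. CCAAT was found before Cat, Adh7, Adh4, Cyp2e1 and the inner start of Aldh1a1, and 35.4% of all starts hold it. None of the 3 motifs contains another, and a match of letters is a description only.

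Gene ends were bare at 4 of the 9 genes and covered in every list at 3. Adh1, Adh4, Adh5 and Cyp2e1 had 0 covered bases within 2 kb of their ends in all 8 lists. Aldh2, Aldh1b1 and Cat had covered ends in all 8, Adh7 in 5 and Aldh1a1 in 1. The acetylated start of Adh5 lies inside the annotated gene, outside these windows. The number of members with a covered end was 4, 4, 3 and 4 of 9 for H3K9ac, against 60.8%, 57.5%, 60.0% and 61.3% of all protein-coding genes. For H3K27ac it was 3, 4, 3 and 5, against 63.9%, 64.1%, 65.4% and 66.8%.

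**Figure D1:**
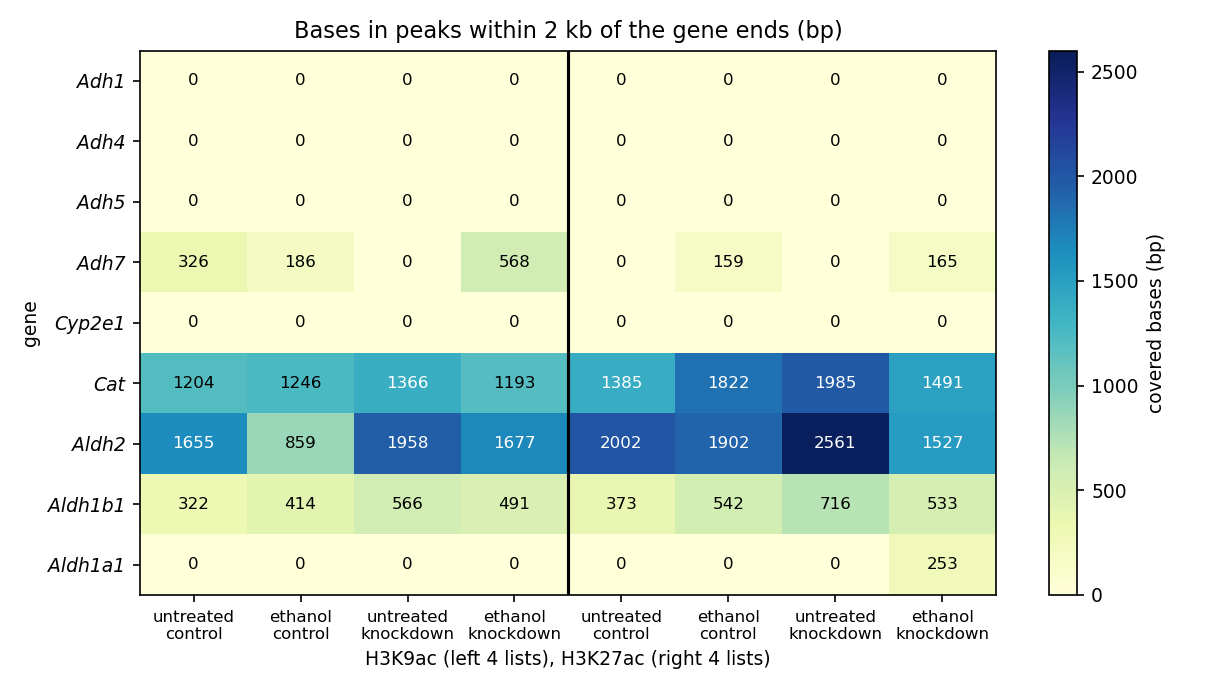
Covered bases (bp) within 2 kb of the gene ends of the 9 genes (rows) in the 8 lists (columns), shaded by value. Adh1, Adh4, Adh5 and Cyp2e1 are at 0 in every list, and Aldh2 and Cat are the most covered, at 859 to 2561 and 1193 to 1985.

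Within 10 kb of the gene body, 6, 6, 5 and 6 members had a peak of H3K9ac, against 69.1%, 66.1%, 68.5% and 69.7% of all genes. For H3K27ac the numbers were 5, 6, 6 and 8, against 72.4%, 72.6%, 73.7% and 75.0%. The peaks in these windows numbered 9, 10, 8 and 8 for H3K9ac and 18, 18, 17 and 24 for H3K27ac. Most H3K9ac peaks of the members (7 of 9, 9 of 10, 7 of 8 and 8 of 8) shared bases with H3K27ac in the matching condition, and fewer H3K27ac peaks (8 of 18, 8 of 18, 8 of 17 and 11 of 24) shared bases with H3K9ac. Merged over all lists, the peaks formed 28 regions, of which 5 (17.9%) were present in all 8 lists and 14 (50.0%) in a single list. Over the genome, 11.3% of 152414 regions were in all 8 and 44.3% in 1. Of the member regions, 64.3% were in H3K27ac lists alone and 7.14% in H3K9ac lists alone, against 72.4% and 4.09% over the genome. The uneven sharing of peaks between the marks is thus not particular to the members, and the H3K27ac lists are the longer ones. The share of all peaks that overlap the other mark was not counted.

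The alcohol dehydrogenase genes lie together on chromosome 3, from 138198064 at the lower end of Adh7 to 138455499 at the upper end of Adh5, a span of 257 kb that also holds Adh6a and Adh6b. Peaks took up 0.476% to 0.721% of that span, and all of them lay at its outermost genes. From 2 kb above the lower end of Adh7 to the lower end of Adh5, a stretch of 237 kb, no list of either mark held a peak. Adh1, the class I enzyme that clears most ethanol in the liver (138277585 to 138290698), therefore had no peak within 10 kb in any condition. Adh4, a class II enzyme (138415456 to 138432683), had 1 peak in its window in each list, which was the Adh5 peak that begins 9.54 kb beyond its upper end.

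**Figure D2:**
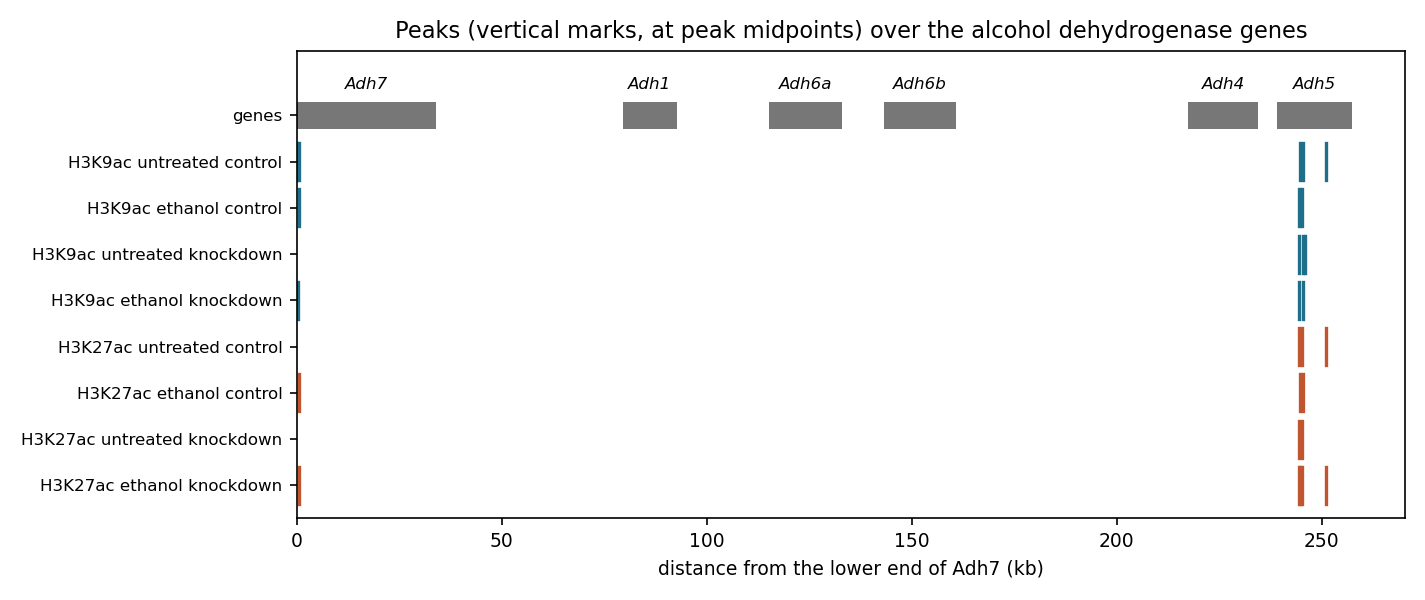
Peak midpoints (vertical marks) in the 8 lists (rows) over the alcohol dehydrogenase genes (grey bars), by distance from the lower end of Adh7 (kb). No list has a mark over the 237 kb from 2 kb above the lower end of Adh7 to the lower end of Adh5.

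Adh5, the class III enzyme that oxidises formaldehyde bound to glutathione and has low activity on ethanol, was the one alcohol dehydrogenase of the set with acetylation in every list. Its peaks lay at the inner annotated start, 138443093, which is 5893 bp above the lower gene end and therefore outside the windows at the ends. Within 2 kb of its annotated starts H3K9ac covered 1364 bp in untreated control, 1040 bp in ethanol control, 1424 bp in untreated knockdown and 1241 bp in ethanol knockdown. H3K27ac covered 1429, 1127, 1299 and 1126 bp. The highest value was 1.37 times the lowest for H3K9ac and 1.27 times for H3K27ac, so no contrast reached 1.5 times. Both ethanol lists were below the untreated list of the same vector in both marks, which was not tested. At gene ends, 11552 of 13436 covered genes had fewer H3K9ac bases with ethanol in control mice and 5117 of 13668 in the knockdown. For H3K27ac these were 7786 of 14373 and 4518 of 14816.

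Of protein-coding genes in the promoter table, 60.9%, 58.5%, 60.4% and 61.4% had a covered base within 2 kb of a start for H3K9ac and 63.4%, 63.6%, 64.6% and 65.8% for H3K27ac. By this measure Adh5, Aldh1b1 and Cat of the 8 members in the table were covered in all lists, and Aldh1a1 in 1 list of H3K27ac. Adh5 belongs to an uncommon group. Of 5501 genes in the table with no covered base at the gene ends in any list, 243 (4.42%) were covered at an annotated start in all 8.

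At Adh5 a peak stood before the inner start and another began near it, with a bare stretch between them. The gap between the upstream and the downstream peak was 152, 210, 251 and 176 bp for H3K9ac and 87, 163, 161 and 148 bp for H3K27ac. In all lists but H3K27ac of untreated control, the bare stretch lay over the last bases of the CpG-rich sequence printed above and the first bases after the start. In that list the downstream peak began 24 bp before the start, so the bare stretch ended within the printed sequence. The downstream peak was the stronger one, with scores of 38.9, 21.3, 33.9 and 22.5 for H3K9ac and 39.0, 43.2, 51.6 and 44.9 for H3K27ac, which exceeded 76.8% to 97.8% of the peaks of their lists. The score is taken as the peak caller's −log10 of the q-value and is compared within a list only. A weak additional peak, near 138449094 to 138449352, was present in H3K9ac of untreated control and in H3K27ac of untreated control and ethanol knockdown, with scores of 3.94, 5.82 and 3.94.

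Adh7, the class IV enzyme best known for oxidising retinol in the lining of the upper digestive tract, was covered in some conditions and bare in others. Its peak lay 0.007 to 0.632 kb inside the lower gene end (138198071 to 138198696), which is 19.1 to 19.7 kb upstream of the one start the promoter table gives, 138217773. The nearest other protein-coding gene, 4930579F01Rik, ends 4233 bp below it. H3K9ac covered 326 bp in untreated control, 186 bp in ethanol control, 0 bp in untreated knockdown and 568 bp in ethanol knockdown. H3K27ac covered 0, 159, 0 and 165 bp. H3K27ac was thus listed there with ethanol in either vector and not listed without it, and H3K9ac was listed in all conditions but the untreated knockdown.

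The Adh7 peaks were small and of middling rank. In untreated control, 2 H3K9ac peaks of 147 and 179 bp scored 4.68 and 5.82, above 15.0% and 27.6% of that list. The single H3K9ac peaks of ethanol control and ethanol knockdown scored 8.98 and 14.4, at 50.6% and 65.5% of their lists, and the H3K27ac peaks scored 6.96 and 8.64, at 48.4% and 66.3%. With lists cut to equal length the same 5 lists stayed covered, with 179, 186, 0 and 568 bp of H3K9ac and 0, 159, 0 and 165 bp of H3K27ac. The part of read depth was not tested. One other protein-coding gene, Aspm, was covered in exactly these 5 lists.

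Cyp2e1, the microsomal P450 that ethanol induces in liver (chromosome 7, 140763819 to 140774990), had 1 peak in 1 list. This H3K27ac peak of ethanol knockdown lay at 140766127 to 140766276, 2.31 kb inside the gene, was 150 bp wide and scored 5.27, above 34.3% of that list. The other 7 lists had none within 10 kb. The list that holds it is the longest of all.

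Catalase, which turns over hydrogen peroxide and can oxidise ethanol with it, had an acetylated promoter in all lists (chromosome 2, 103453904 to 103485153, minus strand). H3K9ac covered 1204 bp in untreated control, 1246 bp in ethanol control, 1366 bp in untreated knockdown and 1193 bp in ethanol knockdown. H3K27ac covered 1385, 1822, 1985 and 1491 bp. The H3K9ac values were the steadiest of the set, with the highest 1.15 times the lowest, and no contrast of either mark passed 1.5 times. That steadiness did not hold under other settings. With peaks of score 5 or above the H3K9ac values were 1204, 678, 1366 and 1193 bp, and with lists of equal length they were 800, 1246, 1366 and 1193 bp, so ethanol control was lower than untreated control in the former and higher in the latter, both past 1.5 times. Knockdown then also passed 1.5 times control, with ethanol in the former and untreated in the latter. As at Adh5, peaks left a gap at or just before the start in most lists. The gaps were 188, 229 and 267 bp for H3K9ac and 105, 163 and 108 bp for H3K27ac. In H3K27ac of untreated control the peak inside the gene reached 4 bp beyond the start. In untreated knockdown a single peak ran across the start in both marks. Over all starts with a peak on both sides, the 150 bp just upstream were mostly uncovered at 41.9%, 53.0%, 46.5% and 44.1% for H3K9ac and at 37.8%, 38.0%, 33.4% and 29.7% for H3K27ac. An H3K27ac region 1.45 to 1.83 kb beyond the lower end of Cat, between it and Elf5, was listed in all conditions but ethanol knockdown, and no H3K9ac list held it.

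**Figure D3:**
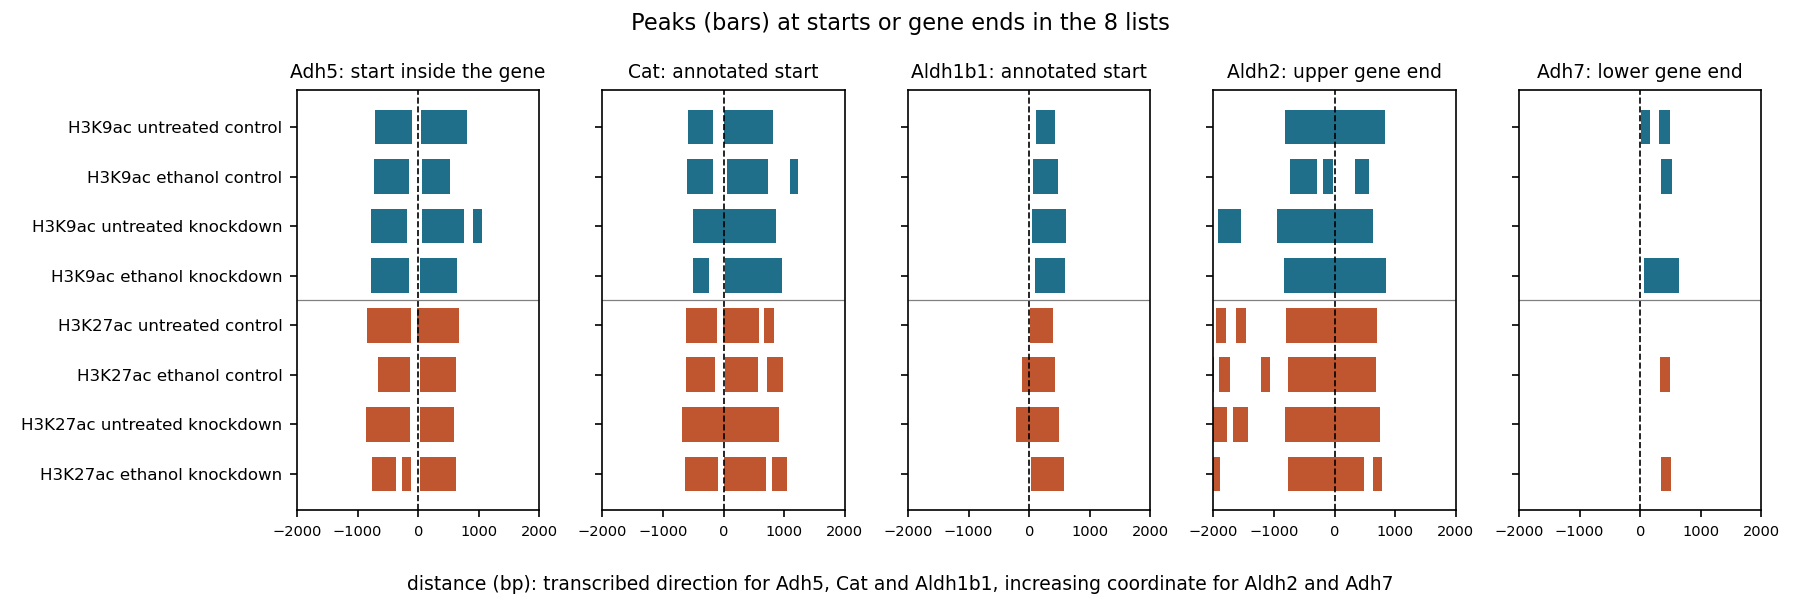
Peaks (bars) of the 8 lists (rows) around the inner start of Adh5, the starts of Cat and Aldh1b1, the upper end of Aldh2 and the lower end of Adh7 (dashed lines, distance in bp). At Adh5 a gap between peaks lies at or just before the start in all 8 lists, and the Adh7 peak is missing from 3.

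Aldh2, the mitochondrial enzyme that removes most acetaldehyde, held the most H3K27ac peaks of the 9 genes in every condition, at 10, 8, 8 and 10 within 10 kb (chromosome 5, 121566027 to 121593824). Its covered bases in H3K9ac were 1655 bp in untreated control, 859 bp in ethanol control, 1958 bp in untreated knockdown and 1677 bp in ethanol knockdown. For H3K27ac they were 2002, 1902, 2561 and 1527 bp. The main peak of both marks lay across the upper end in all 8 lists. In H3K9ac of ethanol control it was broken into 3 peaks of 456, 168 and 235 bp, and in the other H3K9ac lists a single peak of 1584 to 1677 bp stood there. In H3K27ac the same stretch held 1498, 1440, 1557 and 1415 bp, a narrower range.

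H3K27ac also marked the inside of Aldh2, where H3K9ac was not listed. From 5.97 to 9.53 kb inside the upper end, H3K27ac covered 1649, 1205, 1576 and 2044 bp in 5, 3, 3 and 5 peaks, while all 4 H3K9ac lists had 0. These stretches held 43.6%, 36.2%, 33.7% and 50.4% of the H3K27ac bases within 10 kb of the gene. Of the 3 member regions present in all 4 H3K27ac lists and no H3K9ac list, all lie here, at 121584294 to 121584826, 121585435 to 121586155 and 121586330 to 121587472. Such regions made up 8.36% of all regions of the genome. A region nearer to the end, 121591077 to 121592386, was in all H3K27ac lists and, for H3K9ac, in the 2 knockdown lists alone, with 619 and 289 bp.

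**Figure D4:**
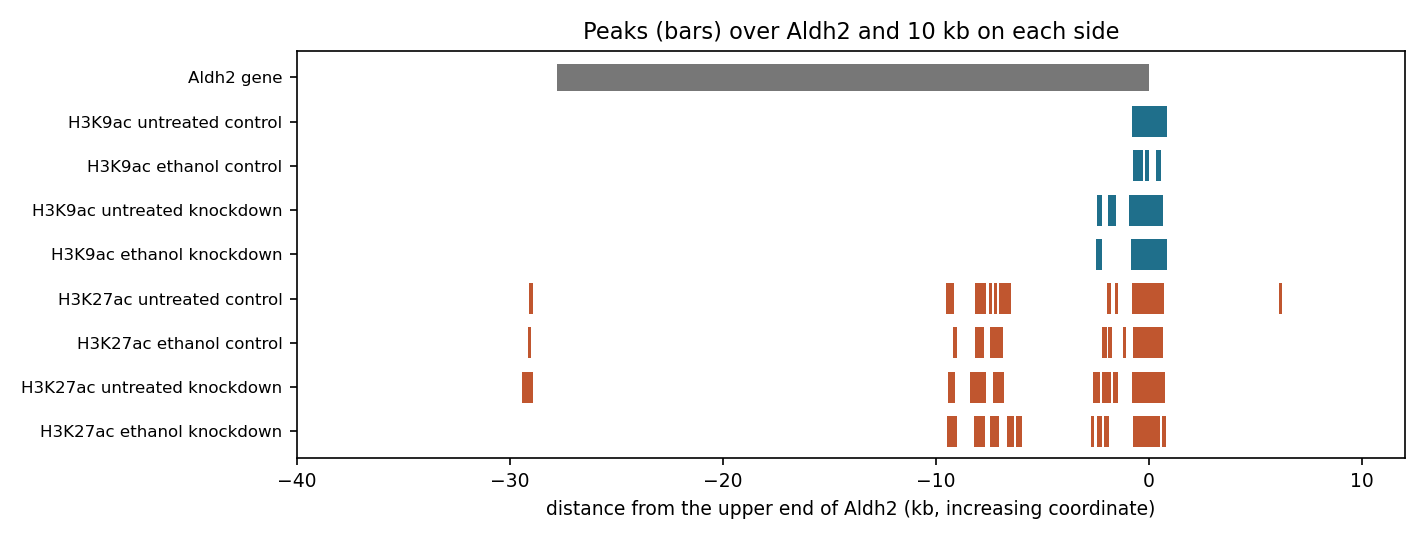
Peaks (bars) of the 8 lists (rows) over Aldh2 (grey bar) and 10 kb on each side, by distance from the upper gene end (kb). Both marks cover the upper end, and only H3K27ac is listed 5.97 to 9.53 kb inside it, in all 4 conditions.

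Aldh1b1, a mitochondrial acetaldehyde and retinaldehyde dehydrogenase (chromosome 4, 45799022 to 45804608), had a narrow peak just downstream of its start. H3K9ac covered 322 bp in untreated control, 414 bp in ethanol control, 566 bp in untreated knockdown and 491 bp in ethanol knockdown. H3K27ac covered 373, 542, 716 and 533 bp. In both marks the untreated control was lowest and the untreated knockdown highest. These small peaks ranked above 57.5% to 72.5% of the H3K9ac lists and 84.8% to 92.2% of the H3K27ac lists. The wider peaks of untreated knockdown ranked lower than those of untreated control, at 68.0% against 70.3% for H3K9ac and 84.8% against 92.2% for H3K27ac. No H3K9ac list covered any of the 500 bp before the start, and H3K27ac did so in ethanol control (111 bp) and in untreated knockdown (67 and 150 bp). A separate H3K27ac peak of 169 bp, 9.47 kb below the start, was listed in untreated knockdown alone, with a score of 10.7.

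Aldh1a1, the cytosolic enzyme that also makes retinoic acid and marks some dopaminergic neurons (chromosome 19, 20492583 to 20643463), had no H3K9ac peak in any list. It had H3K27ac peaks in the 2 knockdown lists and in neither control list, 3 in each. At its start, the ethanol knockdown list alone held a peak of 253 bp (20492781 to 20493033) with a score of 3.25, above 3.33% of that list. The other peaks lay 43.8 to 48.7 kb inside the gene, where the lncRNA genes E030003E18Rik and C730002L08Rik overlap it, with scores of 4.22 to 7.24. One region, 20536407 to 20536708, was shared by both knockdown lists. The knockdown lists are the longer H3K27ac lists, and with lists cut to equal length the start peak drops out, leaving 0 covered bases at the ends of Aldh1a1. At equal length single genes were followed at their ends alone, so the peaks further inside were not. The gene is 151 kb long, and the share of all genes with H3K27ac peaks within 10 kb in the 2 knockdown lists alone was not counted. Of 6 dopaminergic markers, 2 had a covered end in each H3K9ac list and 1 in each H3K27ac list, and Th, Slc6a3, Slc18a2 and En1 had none in any list.

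Ethanol in control mice went with fewer covered H3K9ac bases at Aldh2 and with a newly listed H3K27ac peak at Adh7. At Adh7 the covered H3K9ac bases were also fewer, but not in every setting. For H3K9ac the ratio of ethanol to untreated was 0.519 at Aldh2 and 0.571 at Adh7, 1.29 at Aldh1b1 and 1.03 at Cat. Past 1.5 times, 2 of the 4 covered members were lower and 0 higher, and of 13436 covered genes 30.1% were lower and 1.96% higher. The Aldh2 value lies in a list that was lower at most genes, and the median ratio of genes covered in both lists was 0.799. At Adh7 the direction turned to 7 bp more with peaks of score 5 or above and with lists of equal length, since the weaker untreated peak then drops out. The H3K9ac peak of ethanol control at Adh7 ranked at 50.6% of its list, and the 2 untreated peaks at 15.0% and 27.6% of theirs. For H3K27ac, Adh7 was gained, and no other member passed 1.5 times. Of 14373 covered genes, 2.65% were gained, 7.35% were higher with gains included and 7.04% lower.

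Ethanol in knockdown mice went with new peaks of both marks at Adh7, a new H3K27ac peak at the start of Aldh1a1 and fewer covered H3K27ac bases at Aldh2. For H3K9ac, 1 of 4 covered members was higher, the gained Adh7, and 0 were lower. Of 13668 covered genes, 12.5% were higher, 3.91% by a gain, and 4.89% lower. For H3K27ac, Adh7 and Aldh1a1 were gained, against 12.3% of 14816 covered genes higher and 3.42% gained. Aldh2 was lower at 0.596 times, and 3.07% of covered genes were lower past 1.5 times. At Aldh2, the stretch across the upper end went from 1557 to 1415 bp and the peak below the lower end from 533 to 0 bp. The peaks within 4 kb inside the upper end, partly outside the 2 kb window, went from 1007 to 599 bp. The stretches further inside, which lie outside the windows, went from 1576 to 2044 bp. Within 1 kb of the ends the Aldh2 difference was -142 bp, short of the call, in place of -1034 bp within 2 kb. The Aldh1a1 gain was lost at a score of 5 or above and with lists of equal length.

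The knockdown without ethanol went with more covered bases of both marks at Aldh1b1 and with loss of the H3K9ac peaks at Adh7. Aldh1b1 was covered 1.76 times as much as in control mice for H3K9ac and 1.92 times as much for H3K27ac. These values kept their call in every alternative run. For H3K9ac, 1 of 4 covered members was higher and 1 lower, with Adh7 lost, while 5.60% of 13601 covered genes were higher, 10.6% lower and 3.43% lost. For H3K27ac, 1 of 3 covered members was higher and 0 lower, against 12.1% and 3.67% of 14540 covered genes. Cat stood at 1.43 times and Aldh2 at 1.28 times in this contrast, both below the call.

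The knockdown with ethanol went with more covered H3K9ac bases at Adh7 and Aldh2 and with an H3K27ac peak at the start of Aldh1a1. This comparison uses the same ethanol control list as the first, in which both genes had fewer covered bases than in untreated control. For H3K9ac, Adh7 was covered 3.05 times and Aldh2 1.95 times as much as in ethanol control, which makes 2 of 4 covered members higher and 0 lower. Of 13536 covered genes, 33.3% were higher and 1.88% lower. For H3K27ac, Aldh1a1 was gained and 0 members were lower, against 21.2% higher, 4.80% gained and 2.02% lower of 14747 covered genes. The Aldh1a1 gain ended, from 253 to 0 bp, at a score of 5 or above and with lists of equal length, here and for ethanol in knockdown mice. Aldh2, Cat and Aldh1b1 had H3K27ac ratios of 0.803, 0.818 and 0.983, each below the median of genes covered in both lists, which was 1.19.

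**Figure D5:**
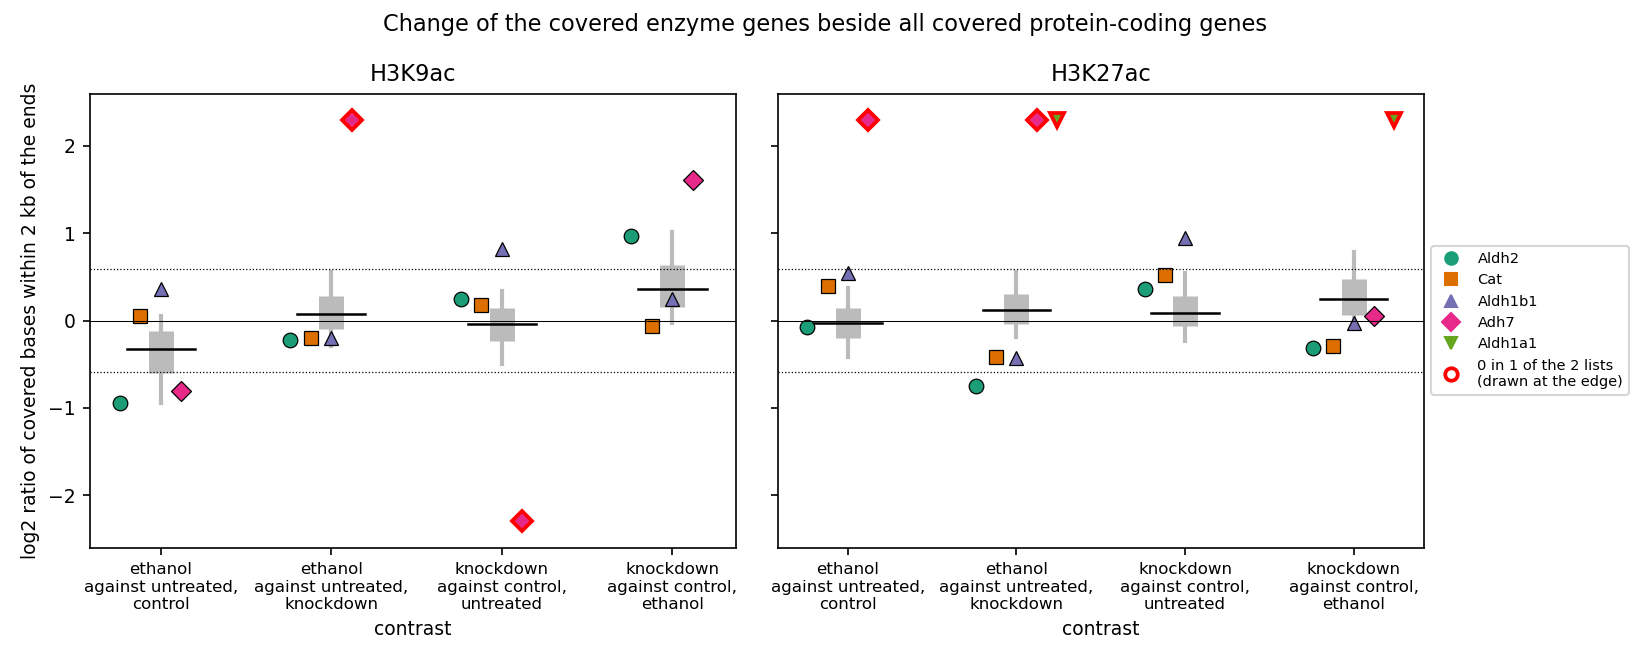
Log2 ratio of covered bases within 2 kb of the ends for the 5 genes with a covered end (symbols) in the 4 contrasts of each mark, beside all covered protein-coding genes (line at the median, thick bar from the lower to the upper quartile, thin bar between the outer deciles). Dotted lines stand at 1.5 times, and red outlines at the edge show genes with 0 in 1 of the lists.

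Summed over the 9 genes, the covered bases were 3507, 2705, 3890 and 3929 bp for H3K9ac and 3760, 4425, 5262 and 3969 bp for H3K27ac. The H3K9ac sums moved much as those of all genes did. Their log2 ratios were -0.37, 0.01, 0.15 and 0.54 in the 4 contrasts in the order above, against -0.37, 0.09, -0.05 and 0.41 over all genes. The H3K27ac ratios lay further from them, at 0.23, -0.41, 0.48 and -0.16 against -0.03, 0.14, 0.12 and 0.28. Aldh2 and Cat hold most of these sums, so they are not a property of 9 separate genes.

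Among 28 other genes of the pathway, which are further alcohol and aldehyde dehydrogenases, partners of P450 enzymes and enzymes that activate acetate, 16 to 18 had covered ends in the H3K9ac lists and 17 to 20 in the H3K27ac lists, against 57.5% to 61.3% and 63.9% to 66.8% of all genes. For H3K9ac, ethanol went with 0 higher and 6 lower of 17 covered pathway genes in control mice (1.96% and 30.1% of covered genes) and with 0 higher and 1 lower of 18 in the knockdown (12.5% and 4.89%). The knockdown went with 1 higher and 1 lower of 18 without ethanol (5.60% and 10.6%) and with 6 higher and 0 lower of 17 with it (33.3% and 1.88%). For H3K27ac, the counts in the same order were 0 and 1 of 18 (7.35% and 7.04%), 1 and 0 of 20 (12.3% and 3.07%), 3 and 0 of 20 (12.1% and 3.67%), and 6 and 0 of 20 (21.2% and 2.02%). The 2 counts of 6 of 17 are near the share of covered genes in the same contrasts.

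Of the 4 genes named by the rule for this list, Aldh1l1, Acss3 and Aldh1a3 were each bare in a list of ethanol control. Aldh1l1, a folate enzyme and astrocyte marker, had 152, 0, 171 and 178 bp of H3K9ac and 0, 0, 140 and 481 bp of H3K27ac. Acss3, a mitochondrial relative of ACSS2, had 0, 0, 374 and 0 bp of H3K9ac and 0, 0, 343 and 287 bp of H3K27ac, so its control lists were bare in both marks. Aldh1a3, a retinaldehyde dehydrogenase, had no H3K9ac and 237, 0, 445 and 503 bp of H3K27ac. Adhfe1, an iron-dependent dehydrogenase, had 1765, 1152, 1454 and 1880 bp of H3K9ac and 1416, 1407, 1654 and 2119 bp of H3K27ac. Of 8 pathway genes bare at both ends, Adh6b, Aldh3a1 and Cyb5r3 were not counted at annotated starts. Por, the reductase that feeds electrons to CYP2E1, resembled Adh5, with peaks at an annotated start in all lists. They covered 981 to 1519 bp for H3K9ac and 1414 to 1683 bp for H3K27ac. Adh6a, Aldh1a2, Aldh1a7 and Aldh8a1 had 0 bp at their starts.

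The genes nearest to the members in covered bases over the 8 lists were found by the mean absolute difference per list. Nearest to Adh7 were Calca at 70.6 bp and Pbk at 80.1 bp, to Aldh2 Chmp1b at 182 bp and Agpat4 at 186 bp, and to Cat Supt3 at 95.0 bp and Kremen1 at 98.5 bp. For Aldh1b1 they were Zfp874b at 69.5 bp and Pcp4l1 at 73.6 bp, and for Aldh1a1 Esr1 at 0.0 bp and Oas1a at 0.125 bp. Calca had no covered end in either mark in ethanol control, where Adh7 had one in both. Patterns such as that of Aldh1a1 were common, with 230 other genes covered in that list alone. The 4 members with bare ends in all lists, among them Adh5 with peaks at its inner start, shared bare ends with 6846 other genes (31.3%). Aldh2, Aldh1b1 and Cat shared covered ends in all lists with 12247 (56.0%).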

How the data were processed

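ChIP-seq of H3K9ac and H3K27ac was deposited as 8 peak lists for 24 ChIP samples in 8 groups of 3, with 12 input samples. Per the labels, peaks of ChIP against input were kept at a false discovery rate of 0.001, and 1 list stands for the 3 replicates of a group. The sources used here do not say how replicates were pooled. GRCm38 (mm10), MACS2, STAR 2.5.2a, bedtools and bcl2fastq appear in the submitters' processing notes. The deposited score, the authors' value, is taken as −log10 q-value because its lowest value was 3.0, and was used only within a list. Depth is unknown.

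Python 3.11.15 with pandas 2.3.3 and numpy 2.4.6 counted bases in peaks within 2 kb of both gene ends, with genes from a GRCm38 RefSeq table that gives no exons or untranslated regions, and starts and strands from a RefSeq promoter table. Upper and lower ends are by coordinate. Counting was tested on simulated data. A gene is called higher or lower past 1.5 times, and gained or lost against 0. Background shares of covered ends and of peaks within 10 kb use 21887 protein-coding genes on the assembled chromosomes, those of covered starts 17492 genes of the promoter table, and those of changes the genes covered in either list. Contrasts that use the same list share its values.

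The members and lists were chosen with earlier results of these data known. All 9 members are named. Of the pathway list, genes gained or lost, or past 1.5 times in both marks alike, are named, and for each covered member the 2 nearest genes. Alternatives were windows of 1 and 5 kb, annotated starts alone, peaks of score 5 or above, lists of equal length and peak midpoints, and for peaks within 10 kb no flank, 5 kb and at least 50% of the peak inside.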

Additional observations from a re-analysis of the deposited data

Results flagged for a closer look

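H3K9ac at Adh7 moved in opposite directions with ethanol in the 2 vectors. In control mice the covered bases went from 326 to 186 bp, a change of -140 bp, and in knockdown mice from 0 to 568 bp, so the 2 changes differ by 708 bp. Each condition has 1 list, and the difference was not tested. The change in control mice became 7 bp more with peaks of score 5 or above and with lists of equal length, and then both changes have the same direction. With annotated starts alone Adh7 had 0 bp in all lists, so neither change was present.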

How the results depend on the processing

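No paired analysis was possible because each group has 1 pooled list and the lists carry no replicate numbers, and leaving out a replicate was not possible for the same reason. Of the alternatives for counts of members and summed ratios, 173 kept their value within 1.5 times and 11 did not. The setting of annotated starts alone leaves out Aldh2, and Adh7 has 0 bp there in all lists. Members called past 1.5 times then fell to 0 in H3K9ac for ethanol in control, ethanol in knockdown and knockdown with ethanol. For knockdown untreated they fell to 1. In H3K27ac they fell to 0 for ethanol in control and 1 for ethanol in knockdown. With a window of 5 kb the H3K27ac counts were 5 for ethanol in knockdown, 3 for knockdown with ethanol and 2 for knockdown untreated. For knockdown with ethanol in H3K27ac the count was 0 with lists of equal length and 0 at a score of 5 or above, where the Aldh1a1 peak drops out. At that score the summed H3K9ac log2 ratio moved from -0.37 to -0.65 for ethanol in control and from 0.54 to 0.88 for knockdown with ethanol, both then past 1.5 times. Cat in H3K9ac for ethanol in control went from 42 bp more to a difference of -526 bp at that score and of 446 bp with lists of equal length. Of the values of single members 402 kept their call, 20 did not, and 2 reversed, both Adh7 in H3K9ac for ethanol in control, at 7 bp more. Unknown depth limits all values, since a bare window in a shorter list is not shown to lack acetylation.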
